A study of Mus musculus with 48 samples.

Results

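Bone marrow-derived macrophages (BMDM) of wild-type (WT) C57BL/6 mice, polarized with IL-4 and IL-13 (M2), were compared with BMDM of the same genotype left unpolarized (M0), both with the vehicle DMSO only. The comparison was chosen by the labels of the count table and holds 3 M2 and 3 M0 libraries, 6 of the 48 libraries of the series, and the 11779 of 51789 genes in the table that passed a filter on low counts. Cells came from hematopoietic stem cells of the bone marrow and were grown for 6 days with M-CSF at 10 ng/mL, a growth factor that drives such cells to become macrophages. M2 cells then had 24 h with murine IL-4 and murine IL-13 at 10 ng/mL each. The sources used here do not give whether M0 cells were kept for those 24 h without cytokine. All 6 cultures had DMSO for 4 h, in the amount that served as vehicle for AP-3-84, the compound the series is about. Used for comparison were M0 and M2 BMDM of p53 knockout (KO) C57BL/6 mice with DMSO, WT M0 and M2 BMDM with 10 µM AP-3-84 for 4 h, and WT BMDM with DMSO after 24 h of LPS at 100 ng/mL and murine IFN-γ at 50 ng/mL (M1), each with 3 libraries. The labels do not say that the replicates of a group are separate cultures or animals, so a p-value measures only the spread between these libraries. They are 3′ libraries of RNA from whole cultures, in which fewer cells of a kind and less RNA per cell cannot be told apart.

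IL-4 and IL-13 are cytokines of type 2 immunity. On macrophages they bind receptors that share the IL-4 receptor alpha chain, and Janus kinases at these receptors phosphorylate STAT6, which moves to the nucleus and switches on its target genes. Macrophages in this alternatively activated state are known for arginase, chitinase-like and resistin-like proteins, lectin receptors and chemokines for T helper 2 cells and eosinophils, and for parts in tissue repair, helminth defence and the fusion of macrophages into giant cells.

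The genes that mark each state followed the labels. Levels are given as CPM, counts scaled to a common library size by the TMM method of edgeR, and changes as log2 fold changes ± standard error (SE). Arg1, arginase 1, which breaks arginine down to ornithine and urea (chr10:24915221-24927484 in GRCm38), stood at 6.06, 3.58 and 2.04 CPM in M0 and 2240.0, 1003 and 1139.6 in M2. Retnla, of the secreted resistin-like protein RELMα (chr16:48842551-48844461), stood at 0.449, 0.239 and 0.767 CPM in M0 and 456, 4299 and 2661 in M2. All 3 M2 libraries were far above all 3 M0 libraries for both genes, and Retnla was lowest of the M2 libraries in replicate 1. The p53 target Cdkn1a, which checks the genotype, ranged over 777 to 1115 CPM among the 6 WT libraries, whereas the vehicle-treated KO libraries, M0 and M2, ranged over 34.1 to 142 CPM.

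Library totals ran from 3365693 to 4277426 counts. M2 replicate 1 stood apart from its group: 196 of the 11779 genes were at least 4-fold above or below both other M2 libraries there, against 56 and 62 genes for replicates 2 and 3 and 30 to 52 genes for the M0 libraries. List medians that moved by over 1.5 times or changed sign with 1 of the 6 libraries left out are given with their range. The summed level of 11 neutrophil markers was 4335 CPM in M2 replicate 1, 649 and 516 CPM in M2 replicates 2 and 3, and 399 to 712 CPM in M0, with all 11 at a count above 0 in each group. Most of the sum in replicate 1 came from S100a8 and S100a9 (2310 and 1402 CPM), while the neutrophil surface marker Ly6g stood at 0 to 1.11 CPM. Granule markers were also highest of the M2 libraries in replicate 1. Over M2 replicates 1 to 3, Mmp8 had 278, 43.4 and 49.4 CPM and Ngp 220, 34.1 and 38.3. Ltf had 80.7, 9.95 and 6.33 CPM and Camp 17.8, 3.92 and 2.85. Mpo, Elane and Retnlg, at low levels, were not highest in M2 replicate 1. The granule markers were present in M0 too. Mmp8 ranged over 112 to 198 CPM there and Ngp over 26.1 to 39.7. Ltf ranged over 9.56 to 11.7 CPM in M0 and Camp over 8.18 to 10.5. Mmp8, Ngp, Ltf and Camp were above every M0 library in M2 replicate 1. In M2 replicates 2 and 3, Mmp8 and Camp lay below M0 and Ngp within its range. Ltf was within the M0 range in M2 replicate 2 and below it in replicate 3. The 12 macrophage markers summed to 31549 to 40455 CPM in M0 and 26036 to 32292 CPM in M2, all 12 present in both. Most of each sum was Lyz2, at 26422 to 33815 CPM in M0 and 20317 to 24818 CPM in M2 (edgeR adjusted p = 0.452). Members moved in both directions at an edgeR adjusted p under 0.05. Cd68 rose by 1.03 on the log2 scale, and Aif1, Fcgr1 and Cd14 changed by -2.08, -2.58 and -1.90. Of 9 dendritic cell markers, 5 had a count in each group, and their sum was 0.673 to 1.91 CPM in M0 and 7.79 to 13.9 CPM in M2, mostly from Zbtb46, with Xcr1, Clec9a, Siglech and Itgae at 0 in M2. Monocyte markers other than Chil3, 6 genes, summed to 117 to 138 CPM in M0 and 44.6 to 92.1 CPM in M2. Markers of mast cells and eosinophils (5.26 to 14.8 CPM in all 6 libraries), B cells (6.33 to 12.3 CPM), T or NK cells (0 to 5.38 CPM), stromal cells (24.0 to 58.8 CPM) and erythroid cells (0 to 0.950 CPM) were low. The eosinophil marker Siglecf had no count in M0 and 1.39, 4.22 and 5.70 CPM in M2 (edgeR adjusted p = 4.03e-04). Ccr3 had 14.8, 5.26 and 6.65 CPM in M0 and 8.90, 1.21 and 0 CPM in M2 (edgeR adjusted p = 0.312). The part of other cells in the results was not tested.

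Promoter sequences are shown because STAT6 is known to bind palindromes of the form TTCNNNNGAA, while most other STAT proteins prefer TTCNNNGAA. Both forms were searched on both strands in the 250 bases before the start of each gene of RefSeq (GRCm38.p6). TTCNNNNGAA was found in 5.85% of all 32851 such windows, in 5.74% of the 8915 tested genes that have a window, in 6.14% of 1157 genes higher in M2 and in 6.65% of 992 genes lower in M2. Among the alternative activation genes, a list described below, 4 of 16 held it. TTCNNNGAA was in 7.02% of all windows and in 3 of the 16. A match describes the letters and is no measure of binding. The windows of 4 of these genes, of the integrin gene Itgax, and of Chil3, which holds only the shorter form, are printed because these genes rose in M2, with the match in capitals (in that of Ccl17 both forms are marked).
Retnla (chr16:48842359-48842608, plus strand, match 145 bases before the start): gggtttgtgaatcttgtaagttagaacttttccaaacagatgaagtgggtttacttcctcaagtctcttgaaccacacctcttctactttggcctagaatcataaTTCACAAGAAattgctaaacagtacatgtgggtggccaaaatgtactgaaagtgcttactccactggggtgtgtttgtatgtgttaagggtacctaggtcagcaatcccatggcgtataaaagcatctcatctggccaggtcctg
Ccl17 (chr8:94810203-94810452, plus strand, matches 154 and 99 bases before the start): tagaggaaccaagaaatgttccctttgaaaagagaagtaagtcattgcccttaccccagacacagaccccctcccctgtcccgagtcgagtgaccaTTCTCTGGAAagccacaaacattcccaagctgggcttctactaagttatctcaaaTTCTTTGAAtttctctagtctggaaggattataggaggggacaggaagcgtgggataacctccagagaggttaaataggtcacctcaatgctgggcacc
Pdcd1lg2 (chr19:29410669-29410918, plus strand, match 82 bases before the start): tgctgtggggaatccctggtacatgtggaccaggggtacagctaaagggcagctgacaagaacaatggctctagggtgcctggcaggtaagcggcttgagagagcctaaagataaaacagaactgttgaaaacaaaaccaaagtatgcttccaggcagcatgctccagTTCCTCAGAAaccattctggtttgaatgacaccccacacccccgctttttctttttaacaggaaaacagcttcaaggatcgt
Clec7a (chr6:129472780-129473029, minus strand, match 131 bases before the start): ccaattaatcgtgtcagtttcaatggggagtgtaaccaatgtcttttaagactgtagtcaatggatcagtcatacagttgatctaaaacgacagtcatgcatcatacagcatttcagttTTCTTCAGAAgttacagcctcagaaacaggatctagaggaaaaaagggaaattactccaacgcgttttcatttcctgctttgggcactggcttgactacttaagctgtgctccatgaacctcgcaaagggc
Itgax (chr7:128129300-128129549, plus strand, match 127 bases before the start): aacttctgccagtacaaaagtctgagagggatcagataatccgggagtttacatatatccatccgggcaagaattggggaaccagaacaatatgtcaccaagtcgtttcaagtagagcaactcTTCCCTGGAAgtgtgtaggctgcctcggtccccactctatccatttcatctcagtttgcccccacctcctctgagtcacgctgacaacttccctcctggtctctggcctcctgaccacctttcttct
Chil3 (chr3:106167565-106167814, minus strand, shorter form 172 bases before the start): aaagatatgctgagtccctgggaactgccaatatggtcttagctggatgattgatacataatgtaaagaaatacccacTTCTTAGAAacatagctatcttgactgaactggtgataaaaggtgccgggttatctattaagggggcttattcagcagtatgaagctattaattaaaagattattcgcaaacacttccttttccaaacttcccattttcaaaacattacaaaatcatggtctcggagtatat

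Of the 11779 genes tested, 1497 (12.7%) were higher and 1264 (10.7%) lower in M2, 2761 (23.4%) in all, at an adjusted p under 0.05 of edgeR's quasi-likelihood test. The median size of these changes was 1.00 on the log2 scale for rises and 0.98 for falls, but the large changes were mostly rises: 83 rises and 8 falls had a log2 fold change of 5 or more in size. All 3 M2 libraries lay above all 3 M0 libraries for 2241 genes (19.0%) and below them for 2096 (17.8%). Without M2 replicate 1, 1315 genes (10.9% of 12072) were higher and 1229 (10.2%) lower, and 1176 of the 1497 rises and 979 of the 1264 falls were among them. TMM factors were 1.04 to 1.08 in M0 and 0.885 to 0.940 in M2. With scaling by library totals alone, the median of all genes moved from 0.01 to -0.20 and the calls split into 940 higher and 2120 lower, so that 30.7% in place of 54.2% of the calls were rises. DESeq2 called 1611 genes higher and 1352 lower.

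**Figure D1:**
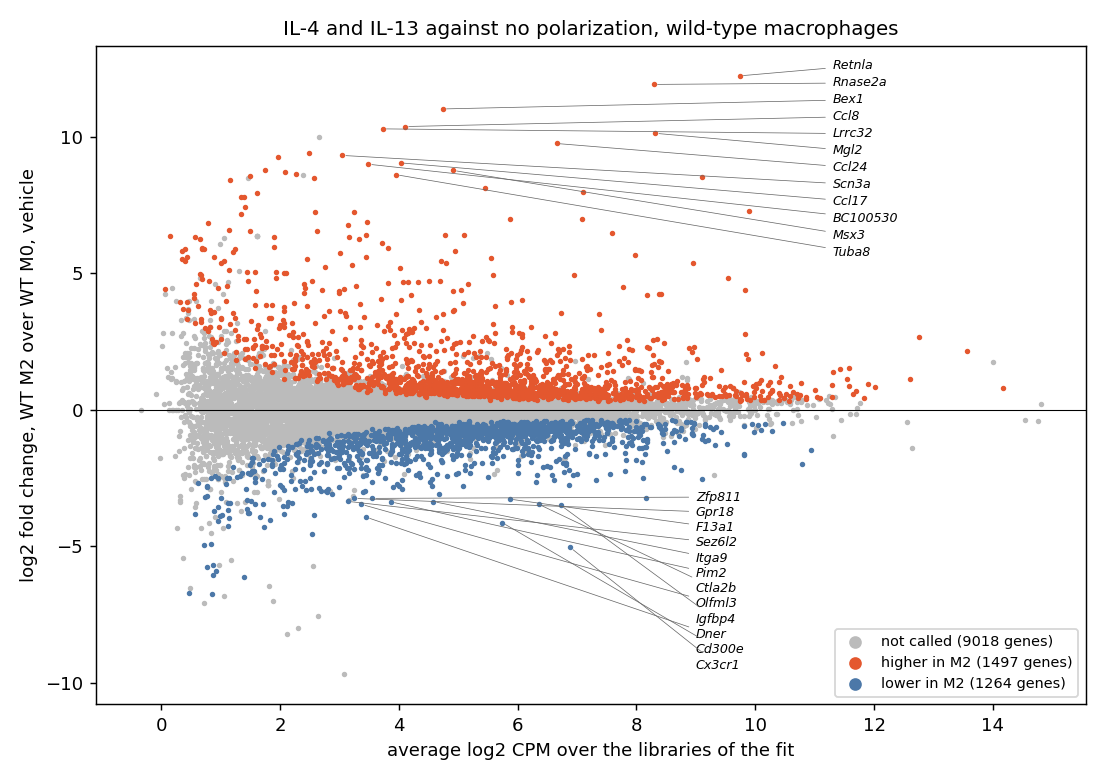
Log2 fold change of M2 over M0 (vertical axis) against the average log2 CPM over the libraries of the fit (horizontal axis), 1 point per gene. Red and blue points are the 1497 genes called higher and 1264 called lower, and the 12 largest rises and falls under the naming rule are labelled; the labelled rises reach log2 values of 8.62 to 12.24, while the labelled falls end at -5.05.

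The 12 largest rises with all M2 above all M0 libraries and an average log2 CPM of 3 or more were Retnla, Rnase2a, Bex1, Ccl8, Lrrc32, Mgl2, Ccl24, Scn3a, Ccl17, BC100530, Msx3 and Tuba8. Retnla rose by 12.24 ± 1.44 on the log2 scale (SE, edgeR adjusted p = 8.1e-07), and by 12.72 without M2 replicate 1. Rnase2a, a ribonuclease of the eosinophil-associated family, had 0, 0.239 and 0.511 CPM in M0 and 336, 1461 and 1382 in M2. That is a ratio of summed counts of 4329.8-fold (95% exact counting interval 1481 to 20999), from only 3 counts in M0. Msx3, a homeobox gene, stood at 0.224, 0.239 and 0 CPM in M0 and 131, 48.3 and 72.2 in M2, and the tubulin gene Tuba8 at 0, 0.239 and 0 CPM in M0 and 40.3, 46.7 and 45.6 in M2. Their ratios were 536-fold (95% exact counting interval 148 to 4435) and 554-fold (95% exact counting interval 98.9 to 21919), and the 3 M2 libraries of Tuba8 lay close together. Bex1, Lrrc32 and Scn3a had no count in M0. Bex1 was at 27.5, 107 and 72.2 CPM in M2, at least 284-fold higher than a floor of 3 counts over the M0 group. Lrrc32, which encodes GARP, a surface anchor for latent TGF-β, was at 22.5, 64.8 and 37.4 CPM and at least 172-fold higher. Scn3a, a sodium channel subunit, was at 12.8, 23.8 and 26.9 CPM and at least 87.3-fold higher. Ccl8 and BC100530, a stefin-like gene that shares 45.9% of the 30-base words of its transcript ends with other genes, rested mostly on M2 replicate 1: Ccl8 had 0, 0.239 and 0 CPM in M0 and 412, 23.8 and 13.6 in M2 and BC100530 0, 0.239 and 0 CPM in M0 and 163, 6.03 and 3.17 in M2. Without that library the log2 fold change of Ccl8 was 7.37. The edgeR call was lost with 1 library left out for BC100530 (without M2 replicate 1, 5.36, adjusted p 0.0511). BC100530 and Ccl8 were not called with a fit of the 6 libraries alone (edgeR adjusted p 0.0801 to 0.12).

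Genes of alternative activation, from a list of 25, rose almost throughout: 22 of 24 tested were higher, none was lower, and the median log2 fold change was 5.72 against 0.01 over all genes. The other 2, Ch25h and Ptgs1, had log2 fold changes of 0.46 and 1.01 (edgeR adjusted p = 0.755 and 0.149). The same counts, 22 and 0, were found with each of the 6 libraries left out in turn and under scaling by total counts. Chil3, the chitinase-like protein Ym1, had 40.6, 20.6 and 12.5 CPM in M0 and 6183, 2902 and 2338 in M2 and rose by 7.27 ± 0.72 (edgeR adjusted p = 5.3e-08). Chil4, its close relative, was absent from M0 and at 22.0, 8.44 and 8.55 CPM in M2, at least 55.7-fold higher; 25.3% of the 30-base words in the transcript ends of Chil3 and 14.4% of those of Chil4 occur in other genes, mostly in each other, so part of their reads may not tell them apart. Egr2, a transcription factor, rose by 5.84 ± 0.56 (edgeR adjusted p = 1.1e-08), and Flt1, a VEGF receptor, by 5.56 ± 0.60 (edgeR adjusted p = 1.5e-07). Fn1, fibronectin, had 6.95, 4.06 and 7.92 CPM in M0 and 104, 131 and 76.3 in M2 and rose by 4.03 ± 0.67 (edgeR adjusted p = 8.8e-05). Tgm2, transglutaminase 2, changed least among the called members, with 243, 291 and 307 CPM in M0 and 605, 455 and 498 in M2 and a rise of 0.89 ± 0.24 (edgeR adjusted p = 0.00718). M2 replicate 1 was, for example, the lowest of its group for Retnla, Ccl17, Flt1 and Il4i1 and the highest for Chil3, Arg1 and Mrc1. All of these genes lay outside the M0 range in each M2 library.

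**Figure D2:**
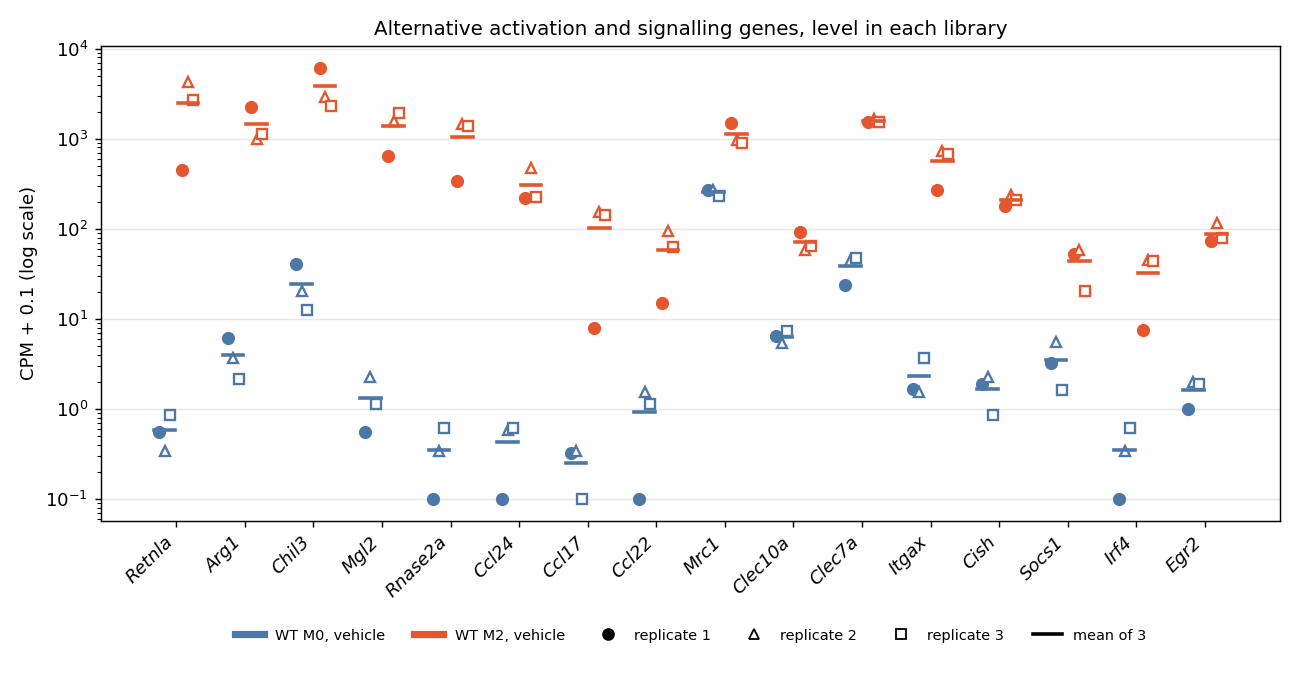
Level of 16 alternative activation and signalling genes in each of the 6 libraries, as CPM + 0.1 on a log axis, with blue for M0 and red for M2, a symbol per replicate and a line for the mean of 3. No M2 library overlaps the M0 libraries for any of the 16 genes. The filled red circle, M2 replicate 1, is the lowest M2 point for genes that include Retnla, Rnase2a, Mgl2, Itgax, Ccl17, Ccl22, Ccl24, Irf4 and Cish.

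Cish, Socs1 and Socs2, feedback inhibitors of cytokine receptors, rose, Ptpn6 fell, and the receptor chain Il4ra and Stat6 were not called. In the list of IL-4 and IL-13 receptor signalling, 9 of 19 members tested were higher and 1 lower, with a median of 0.51. Il4ra, the shared receptor chain, had 170.5, 123 and 147 CPM in M0 and 285, 124 and 119 in M2 and was not called (0.26 ± 0.25, edgeR adjusted p = 0.484). Stat6 had 79.6, 68.1 and 68.2 CPM in M0 and 68.5, 50.7 and 70.3 in M2 and was not called either (-0.19 ± 0.15, edgeR adjusted p = 0.398). Cish, a feedback inhibitor of the SOCS family, had 1.79, 2.15 and 0.767 CPM in M0 and 177, 237 and 209.9 in M2. It rose by 7.00 ± 0.38 (edgeR adjusted p = 2.2e-14), and the 3 M2 libraries lay within 1.4-fold of each other. Socs1, another inhibitor of Janus kinases, rose by 3.66 ± 0.49 (edgeR adjusted p = 2.4e-06) from 3.14, 5.50 and 1.53 CPM to 52.0, 57.9 and 20.3 CPM. Socs2 rose by 5.91 ± 0.69 (edgeR adjusted p = 2.3e-07). Smaller rises were those of the kinase Jak2 (2.02, edgeR adjusted p = 1.1e-08), of Irs2, an adaptor of IL-4 and insulin receptors (1.92, edgeR adjusted p = 0.00347), of Shc1 (0.96) and of Jak1 (0.54). Ptpn6, the phosphatase SHP-1, fell, with 445, 539.8 and 604 CPM in M0 and 217, 239 and 236 in M2 (-1.20 ± 0.20, edgeR adjusted p = 4e-05). Jak1 was not called with scaling by total counts (edgeR adjusted p = 0.0628). Reads of Il4ra, Stat6, Cish and Ptpn6 can come from genes on the opposite strand that overlap their exons. The same holds for others, such as Maf, Ciita, Cx3cr1 and F13a1, and for 30 of the 140 genes named by rule in all. The strand setting of the counting is not given in the sources used here.

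Transcription factors of alternative activation moved in both directions, 8 of 21 higher and 3 lower, with a median of 0.43, or 0.16 without M2 replicate 1 to 0.59 without M2 replicate 3. The share lower, 14.3%, was near the 10.7% of all genes. Irf4, which works downstream of STAT6, had 0, 0.239 and 0.511 CPM in M0 and 7.51, 45.2 and 44.0 in M2, a ratio of 131-fold (95% exact counting interval 44.5 to 640.4) from 3 counts in M0, and all M2 libraries were above M0 although replicate 1 was lowest. Batf3 rose by 4.67 ± 0.56 (edgeR adjusted p = 3.8e-07), Bhlhe40 by 3.64 ± 0.43 (edgeR adjusted p = 3.5e-07) and Klf4 by 1.69 ± 0.23 (edgeR adjusted p = 1.5e-06). Ppargc1b, a coactivator of mitochondrial genes, rose by 2.31 ± 0.38 (edgeR adjusted p = 3.1e-05). Pparg, the lipid-sensing nuclear receptor known for a part in this state, had 2.47, 2.63 and 1.53 CPM in M0 and 4.73, 12.1 and 1.27 in M2 and was not called (1.43 ± 0.65, edgeR adjusted p = 0.115), and its groups overlapped. Maf, a factor of macrophage identity, fell from 977, 1066 and 952 CPM to 287, 118 and 115 CPM, fell by 2.52 ± 0.36 (edgeR adjusted p = 9.1e-06). Ets2 and Myc were called lower at -0.97 and -2.49 (edgeR adjusted p = 0.0486 and 0.0348). With 1 library left out, edgeR no longer called Ets2 (without M0 replicates 1, 2 or 3 or M2 replicates 2 or 3, adjusted p up to 0.237) and Myc (without M0 replicates 1 or 2 or M2 replicates 1 or 3, adjusted p up to 0.148). The log2 fold change moved by over 1.5 times for Ets2 (-1.81 without M2 replicate 1 and -0.65 without M2 replicate 3) and Myc (-3.74 without M2 replicate 2). Ets2 was not called with a fit of the 6 libraries alone (edgeR adjusted p = 0.247). Transcription factors and cofactors of alternative activation had 6 higher and 1 lower without M0 replicate 1, 7 higher and 1 lower without M0 replicate 2 and 10 higher and 1 lower without M2 replicate 3.

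**Figure D3:**
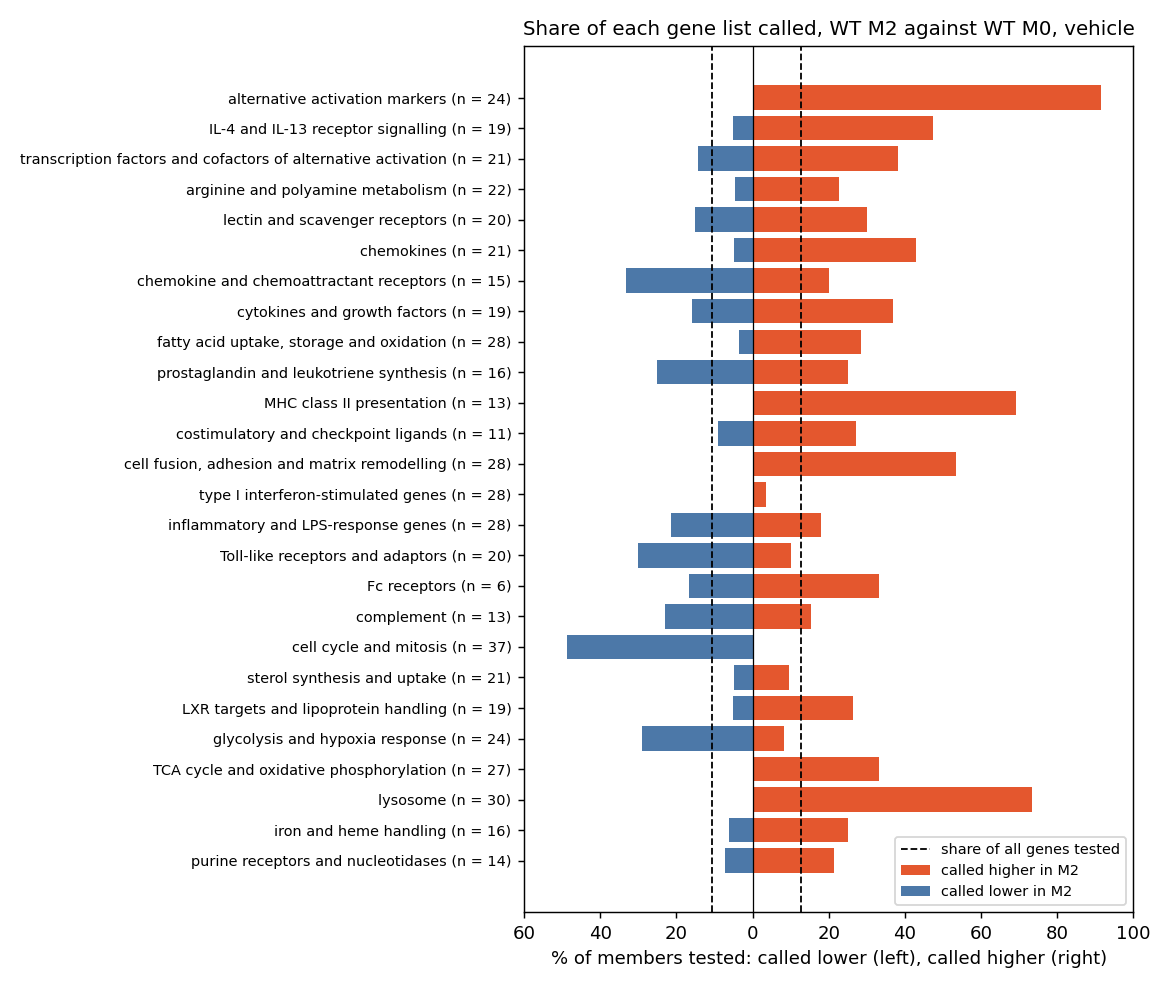
Share of the tested members of each of the 26 gene lists called higher (red, right) or lower (blue, left) in M2, in percent, with the number tested beside each name. Dashed lines mark the shares among all genes tested, 12.7% higher and 10.7% lower; the longest red bars are those of the alternative activation, lysosome and MHC class II lists and the longest blue bar is that of the cell cycle list.

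Chemokines that draw T helper 2 cells and eosinophils rose strongly. Ccl24, eotaxin-2, had 0, 0.478 and 0.511 CPM in M0 and 221, 472 and 223 in M2 and rose by 9.76 ± 0.88 (edgeR adjusted p = 1e-08). Ccl17, a ligand of CCR4, had 0.224, 0.239 and 0 CPM in M0 and 7.79, 155 and 143 in M2, a ratio of 619.8-fold (95% exact counting interval 171 to 5125) from 2 counts in M0. Ccl22, the other CCR4 ligand, had 0, 1.43 and 1.02 CPM in M0 and 15.0, 95.0 and 62.7 in M2 and rose by 6.11 ± 0.87 (edgeR adjusted p = 9.6e-06). In M2 replicate 1 Ccl17 and Ccl22 were well below the other M2 libraries, but above every M0 library. Of 21 chemokines tested, 9 were higher and 1 lower, with a median of 0.85, and the other rises were Ccl8, Ccl5, Cxcl3, Ccl6, Pf4 and Ccl9. Ccl6 had 1257, 396 and 319 CPM in M0 and 3417, 1980.5 and 1773 in M2 and rose by 1.86 ± 0.47 (edgeR adjusted p = 0.00475), and Ccl9 rose by 0.85 ± 0.19 (edgeR adjusted p = 0.00144). Ccl5 had 3.59, 11.7 and 14.3 CPM in M0 and 442, 139.6 and 37.0 in M2 and was highest in M2 replicate 1 (4.40 ± 0.76, edgeR adjusted p = 1.32e-04). Cxcl3 rose by 3.60 (edgeR adjusted p = 0.00323) and Pf4, platelet factor 4, by 1.38 (edgeR adjusted p = 0.049). Cxcl14 fell by 1.34 ± 0.42 (edgeR adjusted p = 0.0191). Omitting 1 library ended the edgeR call of Cxcl3 (without M2 replicate 1, 1.32, adjusted p 0.242), Pf4 (without M0 replicates 1, 2 or 3 or M2 replicate 1, adjusted p up to 0.582) and Cxcl14 (without M0 replicate 3 or M2 replicate 2, adjusted p up to 0.078). The log2 fold change moved by over 1.5 times for Pf4 (0.40 without M2 replicate 1). Pf4 was not called with the replicate number as a block (edgeR adjusted p = 0.0608). Pf4 was not called with scaling by total counts (edgeR adjusted p = 0.0988). Ccl5, Ccl6, Cxcl3 and Pf4 were not called with a fit of the 6 libraries alone (edgeR adjusted p 0.0743 to 0.209). Chemokines had 7 higher and 4 lower without M2 replicate 1. With single libraries left out the median ran from -0.37 without M2 replicate 1 to 1.41 without M0 replicate 1.

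Receptors for chemokines and other attractants had 5 of 15 members lower and 3 higher, with a median of -0.77. Cx3cr1, the fractalkine receptor of monocytes and macrophages, was the deepest fall under the naming rule, from 112, 293 and 325 CPM to 3.06, 10.6 and 8.55 CPM (-5.05 ± 0.68, edgeR adjusted p = 5.6e-06). C5ar1, the receptor of complement fragment C5a, fell from 319, 233 and 193 to 92.4, 23.8 and 29.4 CPM (-2.35 ± 0.42, edgeR adjusted p = 1.95e-04), and C3ar1, that of C3a, fell by 0.77 ± 0.20 (edgeR adjusted p = 0.00594). Cxcr3 fell by 3.92 ± 0.85 (edgeR adjusted p = 9.19e-04) at low counts. Fpr1, the formyl peptide receptor, had 257, 315 and 274 CPM in M0 and 152, 14.2 and 9.82 in M2 and fell by 2.25 ± 0.62 (edgeR adjusted p = 0.00978), or by 4.56 on the log2 scale without M2 replicate 1. No M2 library reached the M0 range for any of these 5. Ltb4r1, a leukotriene B4 receptor, rose by 3.37 ± 0.68 (edgeR adjusted p = 4.29e-04). Ccr1 and Cmklr1 were called higher at 1.60 and 1.17 (edgeR adjusted p = 0.0176 and 0.0028). Calls of edgeR that ended when 1 library was left out were those of C3ar1 (without M2 replicate 2, adjusted p 0.053), Ccr1 (without M0 replicates 2 or 3 or M2 replicate 1, adjusted p up to 0.164) and Cmklr1 (without M2 replicate 1, 0.60, adjusted p 0.11). The log2 fold change moved by over 1.5 times for Fpr1 (-4.56 without M2 replicate 1) and Ccr1 (1.03 without M2 replicate 1). Cmklr1 and Fpr1 were not called with a fit of the 6 libraries alone (edgeR adjusted p 0.0556 to 0.262). Chemokine and chemoattractant receptors had 1 higher and 7 lower without M2 replicate 1.

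The growth factor genes Igf1, Pdgfa, Csf1 and Hbegf rose. Of 19 cytokines and growth factors tested, 7 were higher and 3 lower, with a median of 1.06. With 1 library left out that median ran from 0.32 without M2 replicate 1 to 1.44 without M2 replicate 3, and in the fit of the 6 libraries alone it was 0.22, with 4 higher and 2 lower. Igf1, insulin-like growth factor 1, had 604, 587 and 614 CPM in M0 and 2275, 2724 and 2657 in M2 and rose by 2.08 ± 0.32 (edgeR adjusted p = 2.3e-05). Pdgfa had 36.1, 47.1 and 43.5 CPM in M0 and 147, 149.9 and 149 in M2, with 3 nearly equal M2 libraries, and rose by 1.81 ± 0.35 (edgeR adjusted p = 3.36e-04). Csf1, the gene of M-CSF itself, rose by 2.93 ± 0.51 (edgeR adjusted p = 7.2e-05), and Hbegf, a ligand of the EGF receptor, by 5.60 ± 0.87 (edgeR adjusted p = 2.9e-05). Il1a, Il12b and Tgfb1 were also called higher, at 5.46, 2.40 and 0.57 (edgeR adjusted p = 2.99e-04, 0.00619 and 0.0257). Il10, Il18 and Pdgfb were called lower, at -2.20, -0.93 and -2.84 (edgeR adjusted p = 0.0315, 0.0447 and 0.0333), each from M0 levels under 20 CPM. Il1b had 8.97, 72.6 and 88.2 CPM in M0 and 240.1, 84.1 and 46.5 in M2, Tnf a log2 fold change of -0.14, and neither was called (edgeR adjusted p = 0.226 and 0.824). Among these genes, edgeR calls that ended without 1 library were those of Il12b (without M2 replicate 2, adjusted p 0.089), Tgfb1 (without M0 replicates 1 or 3 or M2 replicates 2 or 3, adjusted p up to 0.102), Il10 (without M0 replicate 3 or M2 replicates 2 or 3, adjusted p up to 0.14), Il18 (without M0 replicates 2 or 3 or M2 replicates 1 or 2, adjusted p up to 0.262) and Pdgfb (without M0 replicates 1 or 2 or M2 replicates 1 or 3, adjusted p up to 0.134). The log2 fold change moved by over 1.5 times for Il1a (3.00 without M2 replicate 1), Il10 (-3.45 without M2 replicate 1) and Il18 (-0.60 without M0 replicate 3). Il18 was not called with the replicate number as a block (edgeR adjusted p = 0.0543). Tgfb1 was not called with scaling by total counts (edgeR adjusted p = 0.177). Il12b, Il18 and Tgfb1 were not called with a fit of the 6 libraries alone (edgeR adjusted p 0.0589 to 0.145). Cytokines and growth factors had 7 higher and 1 lower without M0 replicate 2, 6 higher and 1 lower without M0 replicate 3, 7 higher and 1 lower without M2 replicate 1, 6 higher and 1 lower without M2 replicate 2 and 7 higher and 1 lower without M2 replicate 3.

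The lectin receptors Mgl2, Clec10a, Mrc1 and Clec7a rose, and Clec12a fell. Mgl2, a galactose-type lectin also called CD301b, had 0.449, 2.15 and 1.02 CPM in M0 and 641, 1577 and 1927 in M2 and rose by 10.13 ± 0.66 (edgeR adjusted p = 2.5e-11). Its neighbour Clec10a, CD301a, rose by 3.52 ± 0.44 (edgeR adjusted p = 6.3e-07), and 20.3% of the words in the transcript ends of Mgl2 and 22.3% of those of Clec10a occur in other genes, mostly in each other. Mrc1, the mannose receptor CD206, had 271, 268 and 229 CPM in M0 and 1505, 963 and 891 in M2, so that it was already present in M0, and rose by 2.13 ± 0.37 (edgeR adjusted p = 1.07e-04). Clec7a, the β-glucan receptor dectin-1, had 23.6, 44.0 and 47.0 CPM in M0 and 1541, 1669 and 1541 in M2, with M2 libraries close together, and rose by 5.38 ± 0.75 (edgeR adjusted p = 1e-05). Olr1 and the fatty acid receptor Cd36 rose by 3.85 ± 0.67 (edgeR adjusted p = 7.1e-05) and 1.19 ± 0.25 (edgeR adjusted p = 6.94e-04). Clec12a, an inhibitory lectin, fell by 1.33 ± 0.20 (edgeR adjusted p = 1.2e-05) and Stab1, stabilin 1, fell by 0.98 ± 0.30 (edgeR adjusted p = 0.0181). Marco, a scavenger receptor for bacteria, had 1171, 1963 and 2070.3 CPM in M0 and 1089, 130.3 and 83.6 in M2. It was called lower (-2.00 ± 0.64, edgeR adjusted p = 0.0258), with M2 replicate 1 close to the M0 libraries and replicates 2 and 3 far below them, and at -4.03 without replicate 1 (edgeR adjusted p = 1.3e-05). Of 20 members of the lectin and scavenger receptor list tested, 6 were higher and 3 lower (median 0.52). Without M2 replicate 1 they were 7 and 4, and the median ran from -0.12 without M2 replicate 1 to 0.71 without M0 replicate 3. The edgeR call was lost with 1 library left out for Stab1 (without M0 replicate 3 or M2 replicates 1 or 2, adjusted p up to 0.0862) and Marco (without M0 replicates 2 or 3 or M2 replicates 2 or 3, adjusted p up to 0.11). The log2 fold change moved by over 1.5 times for Marco (-4.03 without M2 replicate 1). Cd36 and Marco were not called with a fit of the 6 libraries alone (edgeR adjusted p 0.0808 to 0.307). Lectin and scavenger receptors had 6 higher and 1 lower without M0 replicate 3 and 6 higher and 1 lower without M2 replicate 2.

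Genes of arginine uptake and breakdown rose. Slc7a2, a cationic amino acid transporter, had 2.69, 4.30 and 2.56 CPM in M0 and 607, 406 and 221 in M2 and rose by 7.00 ± 0.55 (edgeR adjusted p = 7.7e-10). Arg1 rose by 8.52 ± 0.69 (edgeR adjusted p = 1.7e-09), Arg2 by 2.14 ± 0.57 (edgeR adjusted p = 0.00586) and Ass1, which remakes arginine from citrulline, by 1.35 ± 0.28 (edgeR adjusted p = 6.79e-04). Nos2, the inducible nitric oxide synthase of M1 cells, was barely detected, at 0, 0 and 0.767 CPM in M0 and 5.01, 1.51 and 0.317 in M2, a ratio of 9.98-fold (95% exact counting interval 3.03 to 51.8) from 3 counts in M0 (edgeR adjusted p = 0.0186). Odc1, Srm and Sms, the enzymes that make putrescine, spermidine and spermine, were not called (log2 fold changes -0.58, -0.06 and -0.14, edgeR adjusted p = 0.171, 0.887 and 0.606). Smox, which oxidizes spermine, fell by 0.90 ± 0.22 (edgeR adjusted p = 0.00298). In all 5 of 22 members were higher and 1 lower, and the median, 0.15, turned to -0.05 under scaling by total counts and ran from 0.00 without M2 replicate 3 to 0.21 without M0 replicate 1. With 1 library left out, edgeR no longer called Arg2 (without M2 replicate 1, 1.40, adjusted p 0.0903) and Nos2 (without M0 replicates 1 or 2 or M2 replicate 1, adjusted p up to 0.27). A move of over 1.5 times in the log2 fold change was seen with 1 library left out for Ass1 (0.80 without M2 replicate 1) and Nos2 (6.16 without M0 replicate 3 and 1.79 without M2 replicate 1). Arg2 was not called with a fit of the 6 libraries alone (edgeR adjusted p = 0.0545). Arginine and polyamine metabolism had 3 higher and 2 lower without M2 replicate 1.

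Genes of antigen presentation to helper T cells rose together. Of 13 members of the MHC class II list tested, 9 were higher and none lower, with a median of 2.13, and the counts were the same with each library left out, while 5 were higher in the fit of the 6 libraries alone. H2-Aa, an alpha chain, had 6.51, 46.4 and 52.7 CPM in M0 and 144, 1037 and 833 in M2 and rose by 4.26 ± 0.80 (edgeR adjusted p = 3.60e-04). H2-Eb1 and H2-Ab1, beta chains, rose by 4.51 ± 0.85 (edgeR adjusted p = 3.68e-04) and 4.21 ± 0.80 (edgeR adjusted p = 4.14e-04). Cd74, the invariant chain, had 10.3, 44.0 and 60.1 CPM in M0 and 235, 899 and 1004 in M2 and rose by 4.23 ± 0.70 (edgeR adjusted p = 8e-05). H2-DMa and H2-DMb1, which load the peptides, rose by 3.04 ± 0.46 (edgeR adjusted p = 2.4e-05) and 2.13 ± 0.34 (edgeR adjusted p = 3.2e-05). Ciita, the master regulator of these genes, had 0, 0 and 0.256 CPM in M0 and 0.835, 4.22 and 6.33 in M2, a ratio of 46.1-fold (95% exact counting interval 7.78 to 1871) from 1 count in M0. Ctss, cathepsin S, which trims the invariant chain, rose by 1.50 ± 0.25 (edgeR adjusted p = 5.8e-05) and Ifi30 by 1.06 ± 0.19 (edgeR adjusted p = 1.35e-04). Replicate 1 was the lowest library of both groups for H2-Aa, H2-Eb1, H2-Ab1 and Cd74, and no M2 library overlapped the M0 libraries. H2-Aa, H2-Ab1 and H2-Eb1 were not called with a fit of the 6 libraries alone (edgeR adjusted p 0.0582 to 0.0927). Beside them, Zbtb46, a transcription factor used as a dendritic cell marker, rose by 4.73 ± 0.78 (edgeR adjusted p = 3.3e-05) to 5.29, 12.1 and 10.8 CPM, while Flt3 and Cd209a had at most 0.317 CPM. The part of dendritic cells in these values was not tested.

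Ligands for T cell receptors of costimulation and inhibition gave 3 rises and 1 fall of 11 tested. Pdcd1lg2, PD-L2, which binds PD-1, had 0.897, 0.239 and 0.767 CPM in M0 and 15.0, 35.9 and 29.1 in M2 and rose by 5.32 ± 0.65 (edgeR adjusted p = 4.6e-07). Cd274, PD-L1, which binds the same receptor, had 25.1, 28.0 and 26.1 CPM in M0 and 201, 88.7 and 83.0 in M2 and rose by 2.24 ± 0.34 (edgeR adjusted p = 1.4e-05). Cd40 rose by 2.45 ± 0.25 (edgeR adjusted p = 9.1e-09), and Icosl fell by 1.43 ± 0.44 (edgeR adjusted p = 0.0174). Cd80 and Cd86 were not called (0.45 and -0.44, edgeR adjusted p = 0.557 and 0.499). The median of the list was 0.10, -0.11 under scaling by total counts, and -0.15 without M2 replicate 1 to 0.20 without M2 replicate 3. Omitting 1 library ended the edgeR call of Icosl (without M0 replicates 2 or 3 or M2 replicate 2, adjusted p up to 0.112). Icosl was not called with a fit of the 6 libraries alone (edgeR adjusted p = 0.0587).

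Genes of macrophage fusion, adhesion and matrix breakdown rose in number, 15 of 28 higher and none lower, with a median of 0.96. Itgax, the integrin CD11c, had 1.57, 1.43 and 3.58 CPM in M0 and 272, 728 and 678 in M2 and rose by 7.99 ± 0.75 (edgeR adjusted p = 1.9e-08). Itgb3, the β3 integrin, rose by 5.36 ± 0.56 (edgeR adjusted p = 5.7e-08), and Cdh1, E-cadherin, which takes part in fusion, by 5.19 ± 0.47 (edgeR adjusted p = 1.3e-09). Dcstamp and Ocstamp, membrane proteins needed for multinucleated cells, had 5.16, 3.58 and 5.37 CPM in M0 and 25.6, 78.7 and 59.2 in M2 and 2.47, 2.63 and 2.81 CPM in M0 and 9.74, 43.7 and 19.3 in M2 and rose by 3.52 ± 0.63 (edgeR adjusted p = 1.67e-04) and 3.19 ± 0.71 (edgeR adjusted p = 0.00137). Mmp12, the macrophage elastase, had 172, 46.1 and 28.6 CPM in M0 and 3043, 2379.8 and 1541 in M2 and rose by 4.81 ± 0.73 (edgeR adjusted p = 2.7e-05). Timp2, an inhibitor of such enzymes, rose by 2.25 ± 0.25 (edgeR adjusted p = 4.9e-08) and Timp1 by 2.45 ± 0.46 (edgeR adjusted p = 1.86e-04). Mmp9 and Mmp13 were carried by 1 library: Mmp9 had 61.7, 19.1 and 23.3 CPM in M0 and 613, 41.3 and 15.5 in M2 and Mmp13 33.9, 19.6 and 11.2 CPM in M0 and 652, 70.9 and 37.7 in M2. Their log2 fold changes of 2.68 and 3.55 (edgeR adjusted p = 0.0237 and 0.00725) were -0.29 and 1.32 without M2 replicate 1, and neither was then called. Cell fusion, adhesion and matrix remodelling had 12 higher and 3 lower without M2 replicate 1. Under scaling by total counts they were 12 and 3, and with the replicate number as a block 1 member was lower.

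Lysosomal genes rose in small steps: 22 of 30 members were higher and none lower, with a median of 0.83. Atp6v0d2, a proton pump subunit of macrophages and osteoclasts, had 14.8, 11.2 and 19.9 CPM in M0 and 577, 881 and 865 in M2 and rose by 5.66 ± 0.67 (edgeR adjusted p = 8.7e-07). Psap, the precursor of the saposins that help break down sphingolipids, had 4861, 5188 and 5343 CPM in M0 and 18697, 28067 and 21439 in M2 and rose by 2.15 ± 0.26 (edgeR adjusted p = 3.3e-07). The cathepsins Ctsz, Ctsd and Ctsb rose by 1.60 ± 0.15 (edgeR adjusted p = 3e-09), 1.11 ± 0.20 (edgeR adjusted p = 7.6e-05) and 0.84 ± 0.20 (edgeR adjusted p = 0.00222). Lamp1, a lysosomal membrane protein, had 1064, 1252 and 1197 CPM in M0 and 1881, 2231 and 2377 in M2 and rose by 0.88 ± 0.13 (edgeR adjusted p = 7e-06). Tfeb, a regulator of lysosomal genes, rose by 1.35 ± 0.35 (edgeR adjusted p = 0.00494), whereas Tfe3, its relative, was not called (0.21, edgeR adjusted p = 0.317). Ctsk, cathepsin K, was highest in M2 replicate 1, with 20.6, 11.0 and 15.8 CPM in M0 and 191, 35.6 and 18.4 in M2 (2.37 ± 0.63, edgeR adjusted p = 0.00747). Scaling by total counts left 15 of the 30 higher, and leaving out single libraries 16 to 20, none lower in any of these. Calls of edgeR that ended when 1 library was left out were those of Tfeb (without M2 replicate 3, 0.85, adjusted p 0.107) and Ctsk (without M2 replicate 1, 0.76, adjusted p 0.33). Ctsk and Tfeb were not called with a fit of the 6 libraries alone (edgeR adjusted p 0.0839 to 0.189).

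Of 28 genes of fatty acid uptake, storage and oxidation 8 were higher and 1 lower (median 0.29, or 0.29 without M2 replicate 1 to 0.52 without M0 replicate 1). The fatty acid binding proteins Fabp4 and Fabp5 rose by 2.45 ± 0.54 (edgeR adjusted p = 0.00165) and 2.04 ± 0.31 (edgeR adjusted p = 1.6e-05). Lipa, lysosomal acid lipase, rose by 0.85 ± 0.25 (edgeR adjusted p = 0.014), Hadha, of the mitochondrial trifunctional protein, by 0.67 ± 0.15 (edgeR adjusted p = 9.64e-04) and Acaa2, a thiolase, by 1.18 ± 0.26 (edgeR adjusted p = 0.0011). Cpt1a, the carnitine transferase that admits fatty acids to mitochondria, was not called (-0.50, edgeR adjusted p = 0.166). Acsl4 fell by 0.70 (edgeR adjusted p = 0.01). LXR targets and lipoprotein genes had 5 of 19 higher and 1 lower (median 0.44, or 0.18 without M2 replicate 3 to 0.45 without M2 replicate 1). Among them Abcg1, a cholesterol exporter, rose by 1.80 ± 0.36 (edgeR adjusted p = 4.62e-04) and Soat1, which esterifies cholesterol, by 0.81 ± 0.17 (edgeR adjusted p = 6.81e-04), while Apoc2 fell by 1.71 (edgeR adjusted p = 0.0117), with 95.5% of the words in its transcript ends also in Gm44805. Apoe and Abca1 were not called (-0.95 and -1.17, edgeR adjusted p = 0.416 and 0.127). Sterol synthesis and uptake had 2 of 21 higher (Dhcr7 and Mvd) and 1 lower (Sc5d), with a median of 0.13 that was -0.07 under scaling by total counts and -0.11 without M2 replicate 3 to 0.31 without M2 replicate 1. The shares of the sterol list, 9.52% higher and 4.76% lower, were under the 12.7% and 10.7% of all genes. Among these genes, edgeR calls that ended without 1 library were those of Lipa (without M0 replicate 2, adjusted p 0.0607), Acsl4 (without M0 replicate 2 or M2 replicate 3, adjusted p up to 0.103) and Apoc2 (without M2 replicates 1 or 2, adjusted p up to 0.0673). Lipa was not called with scaling by total counts (edgeR adjusted p = 0.0755). Acsl4 and Fabp4 were not called with a fit of the 6 libraries alone (edgeR adjusted p 0.0655 to 0.076). Sterol synthesis and uptake had 0 higher and 0 lower without M0 replicate 1 and 0 higher and 0 lower without M2 replicate 3.

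Enzymes of eicosanoid synthesis were split, 4 of 16 higher and 4 lower, with a median of 0.18 (-0.03 under scaling by total counts). Without M2 replicate 1 they were 3 and 5, and the median ran from -0.28 without M2 replicate 1 to 0.44 without M2 replicate 3. Ltc4s, leukotriene C4 synthase, had 3.14, 3.82 and 4.86 CPM in M0 and 36.5, 22.3 and 28.5 in M2 and rose by 2.88 ± 0.52 (edgeR adjusted p = 1.15e-04). Tbxas1, thromboxane synthase, had 73.8, 42.3 and 49.8 CPM in M0 and 135, 229.8 and 251 in M2 and rose by 1.89 ± 0.33 (edgeR adjusted p = 1.16e-04). Hpgds, the hematopoietic prostaglandin D synthase, fell from 115, 143 and 123 CPM to 36.5, 25.3 and 27.2 CPM (-2.09 ± 0.20, edgeR adjusted p = 1.9e-09), and Alox5, 5-lipoxygenase, fell by 1.64 ± 0.44 (edgeR adjusted p = 0.0057). Ptgs2, cyclooxygenase 2, had 4.26, 8.84 and 7.67 CPM in M0 and 81.0, 41.6 and 4.12 in M2 and was called higher (2.62 ± 0.68, edgeR adjusted p = 0.006), although its lowest M2 library lay under the M0 libraries. The edgeR call was lost with 1 library left out for Ptgs2 (without M2 replicate 1, 1.72, adjusted p 0.0771). Ptgs2 was not called with a fit of the 6 libraries alone (edgeR adjusted p = 0.157). Prostaglandin and leukotriene synthesis had 5 higher and 2 lower without M0 replicate 1.

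Respiratory genes that were called rose, while glycolysis and hypoxia genes were called in both directions. The share of the latter called higher, 8.33%, was under the 12.7% of all genes. Of 27 genes of the TCA cycle and oxidative phosphorylation 9 were higher and none lower, in small steps (median 0.29, 0.08 under scaling by total counts, where 5 were higher). Sdha and Sdhb, subunits of succinate dehydrogenase, rose by 0.74 ± 0.13 (edgeR adjusted p = 7.5e-05) and 0.84 ± 0.18 (edgeR adjusted p = 7.20e-04), and Cox4i1 by 0.56 ± 0.12 (edgeR adjusted p = 4.82e-04). Glycolysis and hypoxia genes had 7 of 24 lower and 2 higher (median -0.49, or -0.68 without M2 replicate 1 to -0.26 without M2 replicate 2). Pdk1, which holds pyruvate back from mitochondria, fell by 1.40 ± 0.32 (edgeR adjusted p = 0.00146), and Pfkl, liver-type phosphofructokinase, fell by 0.75 ± 0.24 (edgeR adjusted p = 0.0196). Pfkp, the platelet-type enzyme of the same step, rose with 68.9, 40.4 and 47.5 CPM in M0 and 160.0, 178 and 199 in M2, by 1.77 ± 0.18 (edgeR adjusted p = 7.7e-09). Ldha and Hk2 were not called (-0.01 and -0.07, edgeR adjusted p = 0.983 and 0.853). With 1 library left out, edgeR no longer called Pfkl (without M0 replicates 2 or 3 or M2 replicates 2 or 3, adjusted p up to 0.163). Values that moved by over 1.5 times on the log2 scale with 1 library left out were those of Pfkl (-1.36 without M2 replicate 1 and -0.47 without M2 replicate 2). Pfkl was not called with a fit of the 6 libraries alone (edgeR adjusted p = 0.177). TCA cycle and oxidative phosphorylation had 5 higher and 0 lower without M0 replicate 2 and 5 higher and 0 lower without M0 replicate 3. Glycolysis and hypoxia response had 1 higher and 3 lower without M0 replicate 2, 1 higher and 12 lower without M2 replicate 1, 2 higher and 2 lower without M2 replicate 2 and 2 higher and 2 lower without M2 replicate 3. Under scaling by total counts 11 glycolysis and hypoxia genes were lower and 1 higher.

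Tfrc, the transferrin receptor, had 189, 88.9 and 98.7 CPM in M0 and 568, 829.7 and 679.9 in M2 and rose by 2.46 ± 0.35 (edgeR adjusted p = 8.9e-06), and Hfe, its partner, by 1.11 ± 0.27 (edgeR adjusted p = 0.00318). Slc11a1, the iron transporter NRAMP1 of phagosomes, fell from 309, 256 and 215 CPM to 175, 99.8 and 67.8 CPM (-1.18 ± 0.22, edgeR adjusted p = 1.55e-04). In all 4 of 16 iron genes were higher and 1 lower (median 0.31, or 0.03 without M2 replicate 1 to 0.45 without M2 replicate 3). Of 14 purine genes 3 were higher and 1 lower (median 0.58, or 0.04 without M2 replicate 1 to 0.65 without M0 replicate 3), and 4 higher and 0 lower without M2 replicate 1. The nucleotide receptors P2ry1 and P2ry14 rose by 2.95 ± 0.45 (edgeR adjusted p = 1.5e-05) and 1.39 ± 0.32 (edgeR adjusted p = 0.00152), and P2ry13 was called lower at -1.57 (edgeR adjusted p = 0.022). Omitting 1 library ended the edgeR call of P2ry13 (without M0 replicate 3 or M2 replicates 1 or 2, adjusted p up to 0.132). Hfe was not called with a fit of the 6 libraries alone (edgeR adjusted p = 0.0763). Purine receptors and nucleotidases had 6 higher and 1 lower without M2 replicate 3.

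Inflammatory genes differed widely among the M2 libraries. In the list of 28 inflammatory and LPS-response genes 5 were higher and 6 lower (median 0.16, -0.07 under scaling by total counts). Saa3, an acute-phase protein, had 72.0, 421 and 628 CPM in M0 and 3421, 201 and 174 in M2, and Acod1, which makes itaconate, 189, 427 and 359.9 CPM in M0 and 1582, 436 and 176 in M2. S100a8, of calprotectin and counted among the neutrophil markers, had 278, 162 and 145 CPM in M0 and 2310.1, 306 and 261 in M2. In each case M2 replicate 1 was the highest of the 6 libraries and the other M2 libraries were close to the M0 range or in it. Saa3 and Acod1 were not called (edgeR adjusted p = 0.138 and 0.119). Some falls were seen in all 3 M2 libraries. Cd14, a coreceptor for LPS, fell from 239, 568 and 472 CPM to 199, 88.4 and 55.4 CPM (-1.90 ± 0.32, edgeR adjusted p = 8.1e-05), and Nfkbiz, an NF-κB cofactor, from 63.9, 183 and 179 to 34.8, 25.9 and 20.6 CPM (-2.39 ± 0.39, edgeR adjusted p = 4.7e-05). Nlrp3, the inflammasome sensor, fell by 2.22 ± 0.42 (edgeR adjusted p = 1.94e-04). Cd14 was not called with a fit of the 6 libraries alone (edgeR adjusted p = 0.0805). Inflammatory and LPS-response genes had 3 higher and 10 lower without M2 replicate 1 and 8 higher and 5 lower without M2 replicate 3. The median ran from -0.56 without M2 replicate 1 to 0.49 without M0 replicate 3. The neutrophil marker sum was also highest in M2 replicate 1, and its part was not tested. In the fit of the 6 libraries alone 0 members were higher and 3 lower, and 0 and 0 when the replicate number was added to it as a block.

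**Figure D4:**
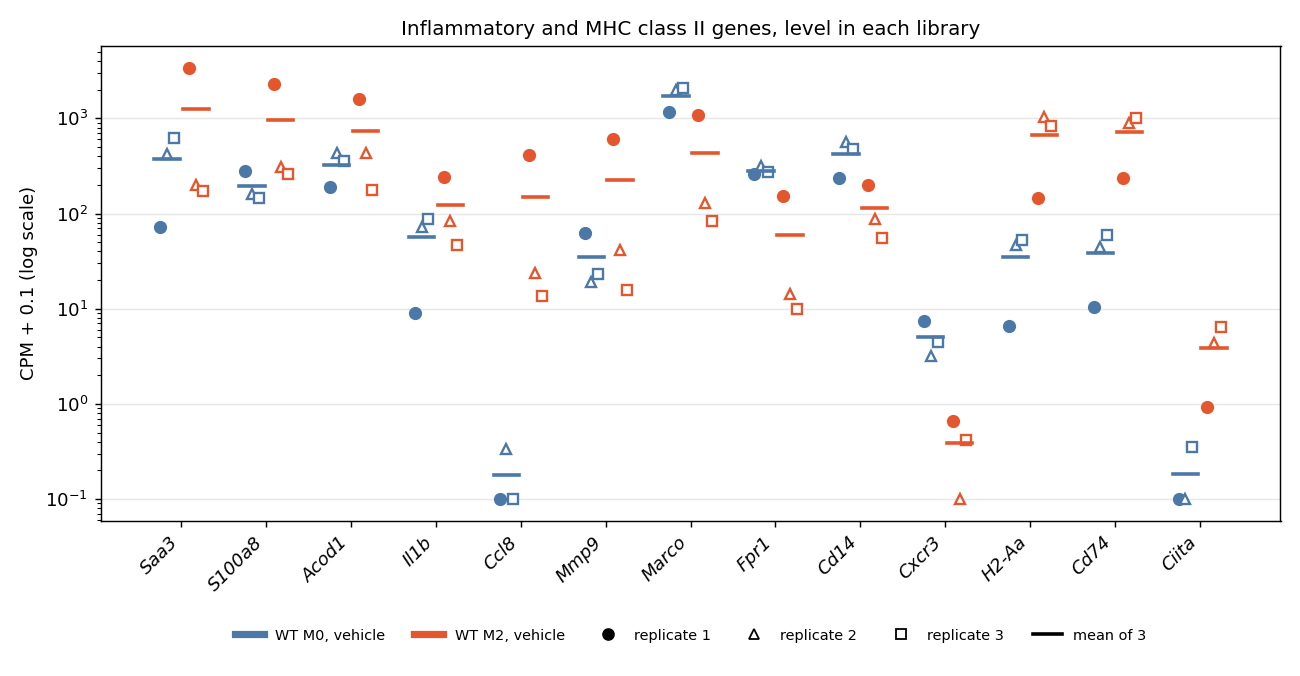
Level of 13 inflammatory and MHC class II genes in each library, as CPM + 0.1 on a log axis, drawn as in the plot of alternative activation genes. M2 replicate 1 (filled red circle) is the highest of the M2 libraries for the 10 genes from Saa3 to Cxcr3 and the lowest for H2-Aa, Cd74 and Ciita.

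Receptors of innate recognition were called in both directions. The shares higher, 10% of Toll-like receptor genes and adaptors and 15.4% of complement genes, were near the 12.7% of all genes. The shares lower were 30% and 23.1%, against 10.7% of all genes. Of 20 Toll-like receptor genes and adaptors 6 were lower and 2 higher (median -0.15, or -0.37 without M0 replicate 1 to -0.06 without M2 replicate 3). Tlr2, for bacterial lipoproteins, fell from 96.0, 252 and 248 CPM to 62.3, 50.1 and 41.2 CPM (-1.96 ± 0.42, edgeR adjusted p = 0.0011). Irak3, an inhibitor of this signalling, fell by 2.59 ± 0.31 (edgeR adjusted p = 4.1e-07) and Myd88, the common adaptor, fell by 0.80 ± 0.22 (edgeR adjusted p = 0.00682). Tlr4, the LPS receptor, rose in contrast, with 23.1, 29.2 and 19.7 CPM in M0 and 41.2, 61.5 and 49.4 in M2 (1.08 ± 0.24, edgeR adjusted p = 0.00125). Of 6 Fc receptors 2 were higher and 1 lower: Fcgr2b, the inhibitory one, had 16.6, 40.1 and 32.7 CPM in M0 and 385, 362 and 283 in M2 and rose by 3.53 ± 0.37 (edgeR adjusted p = 7.7e-08), Fcgr3 rose by 1.19 ± 0.25 (edgeR adjusted p = 9.08e-04), and Fcgr1, the high-affinity receptor, fell by 2.58 ± 0.68 (edgeR adjusted p = 0.00701). Of 13 complement genes 2 were higher and 3 lower (median -0.19, or -0.46 without M0 replicate 1 to -0.03 without M0 replicate 3): C3 had 84.8, 184 and 208 CPM in M0 and 738, 441 and 336 in M2 and rose by 1.67 ± 0.30 (edgeR adjusted p = 1.76e-04), and the C1q chains were not called. Calls of edgeR that ended when 1 library was left out were those of Myd88 (without M2 replicate 3, adjusted p 0.0577). Complement had 2 higher and 5 lower without M2 replicate 1.

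Type I interferon-stimulated genes were largely not called, with Usp18 the only one of 28 higher (1.93 ± 0.39, edgeR adjusted p = 6.19e-04) and none lower (median -0.28). Without M2 replicate 1 the median was -1.13, 8 were lower and 1 higher, and without M2 replicate 3 the median was 0.01. Ifit2 and Oas2, for example, stood at 5.38, 13.4 and 8.95 CPM in M0 and 7.23, 1.81 and 1.27 in M2 and at 5.38, 7.65 and 3.58 CPM in M0 and 5.84, 2.11 and 1.27 in M2. Under scaling by total counts 3 members were lower.

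Genes of the cell cycle and mitosis were lower in M2, 18 of 37 with none higher and a median of -0.97, and all 3 M2 libraries were below all M0 libraries for 27 of the 37, against 17.8% of all genes. Mki67, the proliferation marker Ki-67, had 194, 234 and 272 CPM in M0 and 82.4, 117 and 137 in M2 and fell by 1.06 ± 0.31 (edgeR adjusted p = 0.0122). Top2a, a topoisomerase of dividing cells, had 443, 495 and 568 CPM in M0 and 156, 175 and 249 in M2 and fell by 1.38 ± 0.38 (edgeR adjusted p = 0.00851). Bub1, a kinase of the spindle checkpoint, fell from 20.9, 22.5 and 24.0 CPM to 4.73, 6.03 and 5.70 CPM (-2.03 ± 0.37, edgeR adjusted p = 1.21e-04). Cdk1, the kinase that starts mitosis, fell by 1.04 ± 0.34 (edgeR adjusted p = 0.0267) and Ccna2, cyclin A2, fell by 1.34 ± 0.41 (edgeR adjusted p = 0.0185). Ccnd1, cyclin D1, had 1392, 338 and 205 CPM in M0 and 245, 149 and 144 in M2, where M0 replicate 1 was highest, and fell by 1.85 ± 0.55 (edgeR adjusted p = 0.0166). The p53 target Cdkn1a, which halts the cycle, was not called (-0.05, edgeR adjusted p = 0.923). Among these genes, edgeR calls that ended without 1 library were those of Mki67 (without M0 replicate 3 or M2 replicate 1, adjusted p up to 0.0672), Cdk1 (without M0 replicates 1 or 3 or M2 replicates 1, 2 or 3, adjusted p up to 0.0803), Ccna2 (without M2 replicates 1 or 3, adjusted p up to 0.0771) and Ccnd1 (without M0 replicate 1 or M2 replicates 2 or 3, adjusted p up to 0.414). A move of over 1.5 times in the log2 fold change was seen with 1 library left out for Ccnd1 (-0.60 without M0 replicate 1). Ccnd1 was not called with a fit of the 6 libraries alone (edgeR adjusted p = 0.211). Cell cycle and mitosis had 0 higher and 10 lower without M0 replicate 1, 0 higher and 9 lower without M2 replicate 1, 0 higher and 11 lower without M2 replicate 2 and 0 higher and 11 lower without M2 replicate 3. Under scaling by total counts 23 were lower.

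The 12 largest falls under the naming rule were Cx3cr1, Cd300e, Dner, Igfbp4, Olfml3, Ctla2b, Pim2, Itga9, Sez6l2, F13a1, Gpr18 and Zfp811. Cd300e, an activating receptor of monocytes, had 24.2, 32.7 and 28.6 CPM in M0 and 1.95, 1.51 and 1.27 in M2 and fell by 4.14 ± 0.48 (edgeR adjusted p = 1.9e-07). Igfbp4, a binding protein of insulin-like growth factors, had 198, 229.6 and 188 CPM in M0 and 15.9, 19.9 and 18.7 in M2, even within both groups, and fell by 3.50 ± 0.41 (edgeR adjusted p = 4.2e-07). F13a1, the A chain of coagulation factor XIII, had 73.6, 91.0 and 87.9 CPM in M0 and 8.35, 6.94 and 10.8 in M2 and fell by 3.28 ± 0.58 (edgeR adjusted p = 1.76e-04). Dner fell by 3.94 ± 0.47 (edgeR adjusted p = 1.7e-07), Olfml3 fell by 3.47 ± 0.48 (edgeR adjusted p = 1.9e-06), the kinase Pim2 fell by 3.38 ± 0.56 (edgeR adjusted p = 4.7e-05) and the integrin Itga9 fell by 3.36 ± 0.63 (edgeR adjusted p = 2.28e-04). Gpr18 and Zfp811 were lower at -3.25 and -3.25 (edgeR adjusted p = 0.00486 and 4.8e-05). Sez6l2 rested on few counts, with 7.18, 1.43 and 1.28 CPM in M0 and 0.557, 0.302 and 0 in M2 (-3.36 ± 1.16, edgeR adjusted p = 0.0354). Ctla2b fell by 3.46 ± 0.59 (edgeR adjusted p = 1.00e-04), but 94.6% of the words in its transcript end occur in other genes, as do 24.5% of those of Bex1, 14.7% of Fabp5, 14.5% of Socs2 and 12.64% of Igfbp4. The edgeR call was lost with 1 library left out for Sez6l2 (without M0 replicate 1 or M2 replicates 1, 2 or 3, adjusted p up to 0.304). Values that moved by over 1.5 times on the log2 scale with 1 library left out were those of Zfp811 (-5.20 without M2 replicate 1) and Sez6l2 (-2.08 without M0 replicate 1).

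Set against M1 cells, which share the M2 libraries with the comparison above, 1607 genes (13.6%) were higher and 1397 (11.9%) lower in M2, 3004 (25.5%) in all. Of the 24 alternative activation genes 23 were higher in M2 than in M1. Arg1 stood at 47.3 ± 6.17 CPM (SD, n = 3) in M1, and the difference of M2 from M1 was 4.95 ± 0.56 (edgeR adjusted p = 2.1e-07). Mrc1 was at 35.8 ± 2.57 CPM in M1, and M2 exceeded M1 by 4.97 ± 0.42 (edgeR adjusted p = 1.5e-09). Tmem26, a membrane protein, had the lowest p of this comparison among well expressed genes, at 10.3, 11.7 and 8.18 CPM in M0 and 267, 360.1 and 296 in M2 and 1.35 ± 0.255 CPM in M1 (7.80 ± 0.35, edgeR adjusted p = 6.5e-17). Dhrs9, a dehydrogenase of retinoids, and Il11ra1 differed by 4.83 ± 0.28 (edgeR adjusted p = 2.6e-14) and 3.45 ± 0.22 (edgeR adjusted p = 1.5e-13), and 62.0% of the words in the transcript ends of Il11ra1 also occur in Gm13305. Nos2 was at 3.38 ± 1.68 CPM in M1 and was not called (-0.53 ± 0.68, edgeR adjusted p = 0.629). Of 28 interferon-stimulated genes, M2 was lower for 24, and of 24 glycolysis and hypoxia genes for 21.

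The same polarization was measured in KO macrophages, which share no library with the WT comparison. There 2366 genes (20.1%) were higher and 2115 (18.0%) lower in M2, 4481 (38.0%) in all. Of the 1497 WT rises 577 (38.5%, and 24.4% of the KO rises) were higher in KO as well and 139 lower, and of the 1264 WT falls 393 (31.1%, and 18.6% of the KO falls) were lower and 249 higher. The test of the difference between the responses called 3197 genes (27.1%), of which 1555 (13.2%) had the higher and 1642 (13.9%) the lower response in WT. KO M2 libraries spread widely too: 107, 33 and 99 genes were at least 4-fold from both others in replicates 1 to 3, and macrophage markers summed to 6749 to 19411 CPM there against 34529 to 41611 CPM in KO M0. These sums move with the response and their part was not tested.

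Alternative activation genes rose in both genotypes. In KO 20 of 24 were higher (median 5.30), and the difference was called for 6 of 24, 5 with the higher and 1 with the lower response in WT. These 6 of 24 were near the 27.1% of all genes for which the difference was called. The median difference over the list, WT minus KO, was 1.64. Arg1 responded by 10.43 ± 0.77 (edgeR adjusted p = 3.2e-10) in KO, with a difference of -1.91 ± 1.02 (edgeR adjusted p = 0.171), Retnla by 9.96 ± 1.25 (edgeR adjusted p = 1.3e-06) with 2.28 ± 2.24 (edgeR adjusted p = 0.481), and Cish by 6.39 ± 0.39 (edgeR adjusted p = 1.6e-13) with 0.62 ± 0.64 (edgeR adjusted p = 0.5). None of these 3 differences was called. Retnla stood at 5858, 455 and 406 CPM in KO M2, and without KO M2 replicate 1 its difference was 4.65 and was called (edgeR adjusted p = 0.0481). With no filter on low counts the differences of Arg1 and Retnla were called, at -1.92 and 2.28 (edgeR adjusted p = 3.1e-05 and 5.64e-04). A stronger rise in WT was called for Clec7a, which rose by 1.84 ± 0.64 (edgeR adjusted p = 0.0257) in KO (difference 3.53 ± 0.92, edgeR adjusted p = 0.00627), and for Hbegf, which was at 0.08 ± 0.65 (edgeR adjusted p = 0.94) in KO (difference 5.53 ± 1.11, edgeR adjusted p = 6.63e-04). Ltc4s went in opposite directions, with -2.13 ± 0.53 (edgeR adjusted p = 0.00212) in KO (difference 5.01 ± 0.75, edgeR adjusted p = 1.5e-05). Il4ra fell in KO cells (-1.01 ± 0.25, edgeR adjusted p = 0.00217), and the difference from WT was 1.27 ± 0.35 (edgeR adjusted p = 0.0086). Of the largest falls, Igfbp4 fell in KO too (-3.69 ± 0.40, edgeR adjusted p = 1.1e-07), with a difference of 0.19 ± 0.54 (edgeR adjusted p = 0.832). Cd300e was higher in KO M2 (2.13 ± 0.72, edgeR adjusted p = 0.0214), with a difference of -6.27 ± 0.86 (edgeR adjusted p = 6.6e-06). Called values that 1 left-out library took past the threshold of edgeR were the KO changes of Clec7a (without KO M0 vehicle replicates 1, 2 or 3 or KO M2 vehicle replicate 1, adjusted p up to 0.0983) and Cd300e (without KO M0 vehicle replicates 2 or 3 or KO M2 vehicle replicate 3, adjusted p up to 0.217) and the difference of Il4ra (without WT M2 vehicle replicate 1, adjusted p 0.059).

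MHC class II, lysosomal and cell cycle genes also differed between the genotypes. Among 13 class II genes 2 were higher and 1 lower in KO, and the response was higher in WT for 7 and lower for 1. H2-Aa was at 379.7 ± 9.77 CPM in KO M0 and 888 ± 825 CPM in KO M2 (SD, n = 3), so that its KO M0 level was above the WT M0 libraries, and the difference of the responses was 3.03 ± 1.01 (edgeR adjusted p = 0.0288). Its edgeR call depended on single libraries, as seen for H2-Aa (without KO M0 vehicle replicate 3, KO M2 vehicle replicates 2 or 3, WT M0 vehicle replicate 1 or WT M2 vehicle replicates 2 or 3, adjusted p up to 0.0798). Of 30 lysosomal genes 13 were higher and 2 lower in KO, and the response was higher in WT for 15, among them Psap (1.48 ± 0.35, edgeR adjusted p = 0.00257). Cell cycle genes went opposite ways: 32 of 37 were higher in M2 in KO (median 2.59), and the response was lower in WT for 33. Bub1 was at 1.70 ± 0.427 CPM in KO M0 and 17.8 ± 5.77 CPM in KO M2, and the difference was -5.41 ± 0.57 (edgeR adjusted p = 3.4e-07). Mki67 was at 33.1 ± 6.78 CPM in KO M0, below the WT M0 libraries, and at 169 ± 75.9 CPM in KO M2 (2.36 ± 0.33, edgeR adjusted p = 2.5e-06), with a difference of -3.42 ± 0.45 (edgeR adjusted p = 4.8e-06). Inflammatory genes were higher in 15 of 28 and lower in 2 in KO (median 1.48), with a lower response in WT for 9. Interferon-stimulated genes were higher in 12 of 28 and lower in 1, against 20.1% and 18.0% of all genes. Their response was lower in WT for 4 of 28, near the 13.9% of all genes. The KO M2 libraries did not lie together: class II genes summed to 12623, 4823 and 3606 CPM, lysosomal genes to 74540, 42711 and 35711 CPM, and interferon-stimulated genes to 814, 1599 and 3596 CPM. The neutrophil marker sum was 451, 765 and 3482 CPM in the same libraries, and its part was not tested.

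**Figure D5:**
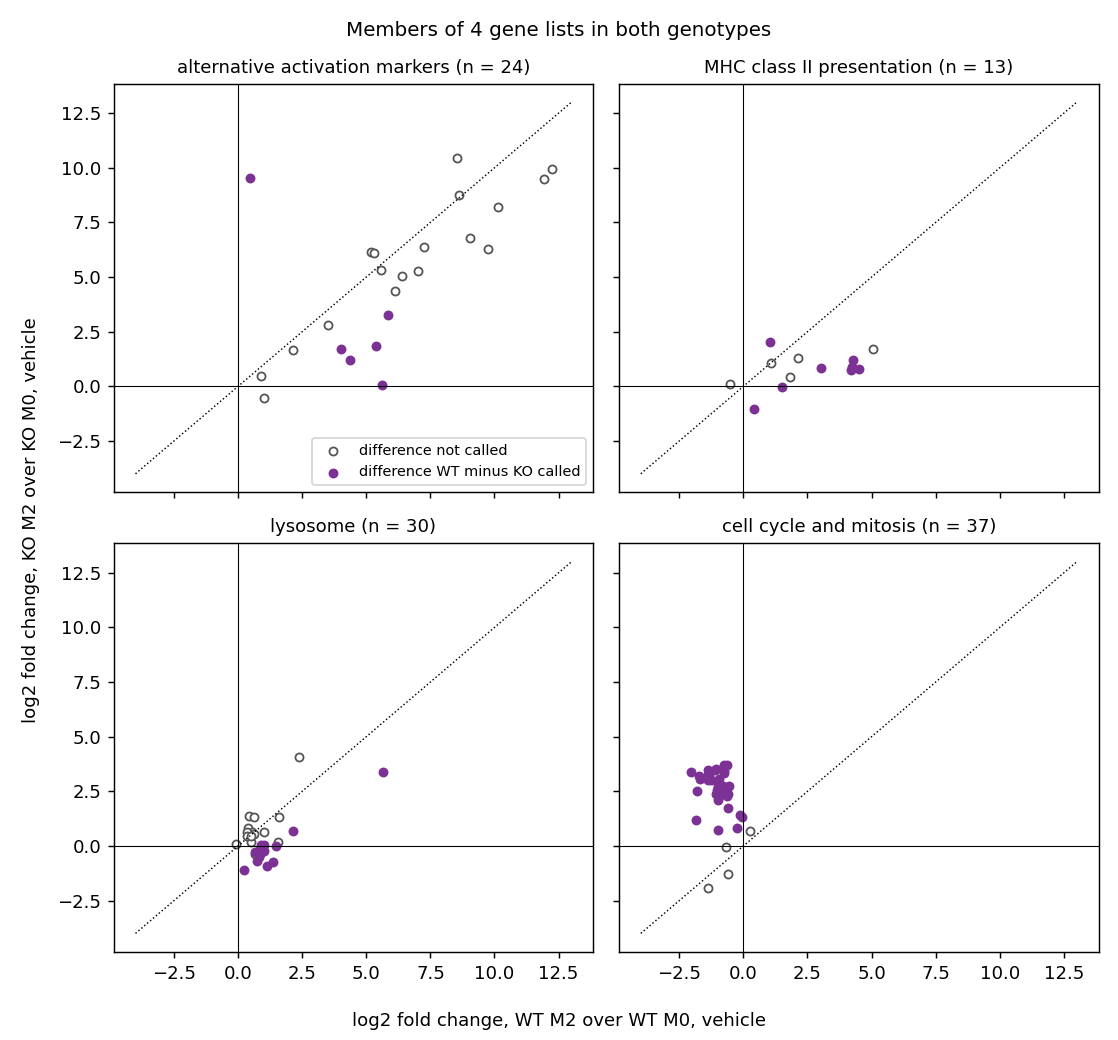
Log2 fold change of M2 over M0 in WT (horizontal axis) and in KO (vertical axis) for members of 4 gene lists, 1 point per gene, filled where the difference of the responses was called; the dotted line marks equal responses. The median difference of the responses, WT minus KO, was 1.64 for alternative activation, 1.52 for MHC class II and 0.96 for lysosomal genes. Those lists lie mostly below the line. Cell cycle genes (median difference -3.52) lie mostly above it, with 36 of 37 WT values below 0.

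In WT cells that had AP-3-84 in place of DMSO, again in libraries not used above, 1095 genes (9.30%) were higher and 1061 (9.01%) lower in M2, 2156 (18.3%) in all. They included 707 of the 1497 rises with vehicle (47.2%, and 64.6% of the rises with the compound) and 565 of the 1264 falls (44.7%, and 53.3%), and 2 rises and 0 falls were called the other way. Of the 24 alternative activation genes 22 were higher and none lower here as well, with a median of 5.23. Lysosomal genes had 22 higher and 0 lower (median 0.78), and MHC class II genes 9 and 1 (1.67). Other lists were unlike vehicle. Cell cycle genes had 2 higher and 1 lower (median -0.11), against 0 and 18 with vehicle. Inflammatory genes had 0 and 18 (-1.97), against 5 and 6, and chemokines 5 and 5 (0.09), against 9 and 1. The difference of the responses was called for 1 inflammatory gene and for 0 cell cycle genes or chemokines. Arg1 rose by 8.88 ± 0.70 (edgeR adjusted p = 2.5e-09), Chil3 by 5.99 ± 0.68 (edgeR adjusted p = 9e-07) and Mgl2 by 9.13 ± 0.62 (edgeR adjusted p = 7.7e-11) with the compound. A difference between the 2 responses was called for 16 genes (0.136%), and for 2 with the replicate number as a block. By p they were led by Gpr132, a receptor that responds to acid and oxidized lipids, with 5.16, 5.50 and 9.20 CPM in M0 and 24.2, 38.0 and 36.4 in M2 under vehicle, 15.9 ± 3.06 CPM in M0 and 11.6 ± 3.08 CPM in M2 with AP-3-84, and a difference of -2.77 ± 0.48 (edgeR adjusted p = 0.0153). Ralgds, which activates Ral proteins, had a difference of -1.48 ± 0.28 (edgeR adjusted p = 0.03), AW112010 of -2.65 ± 0.51 (edgeR adjusted p = 0.0344) and Ptafr, the receptor of platelet-activating factor, of -1.65 ± 0.29 (edgeR adjusted p = 0.0153). The count of 16 ranged from 0 to 43 with single libraries left out. None of these 4 genes was called by edgeR without WT M0 AP-3-84 replicate 1 or 2, WT M2 AP-3-84 replicate 1 or 2, WT M0 vehicle replicate 1 or WT M2 vehicle replicate 2 (adjusted p up to 0.152), and neither Ralgds nor AW112010 without WT M2 vehicle replicate 1.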

How the data were processed

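The submitters deposited 1 table of raw counts per gene for 48 libraries. RNA of the macrophages was made into QuantSeq 3′ libraries and sequenced in single reads, per the labels' protocols. The submitters' processing notes name RSEM, Bowtie2 and DESeq2. No source used here states their roles, the genome build, the strand setting or whether molecular identifiers were counted, and if RSEM made the counts, the whole numbers deposited may be rounded estimates. Multimapped reads and paralogs are therefore uncertain. Mitochondrial genes are absent from the table.

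Genes with low counts were removed with filterByExpr by group, counts were scaled by TMM, and edgeR 4.0.16 (limma 3.58.1, R 4.3.3) fitted 1 mean per group over the 36 bone marrow-derived libraries in 12 groups, with robust quasi-likelihood tests and Benjamini-Hochberg adjustment over 11779 genes. A gene was called at an adjusted p under 0.05. The 6 libraries compared held 3365693 to 4277426 counts. The scripts were tested on simulated counts. Alternatives were DESeq2 1.42.0, median-ratio and total-count scaling, no filter, a fold threshold, other sets of libraries, a replicate block and each library left out. A block in the fit of the 6 libraries alone was chosen after seeing the data. Deviations from the group means correlated at 0.208, 0.114 and 0.208 between WT vehicle M0 and M2 libraries of the same number. Such values were 0.013, 0.002 and -0.132 in KO with vehicle and -0.156, -0.026 and -0.183 in WT with the compound. Pairing by number was thus not seen in those groups. The replicate block, used only in alternatives and not in the main fit, rests on a hint from the WT vehicle data and not on the labels. Genotype was taken from the titles, because 1 label field calls all these libraries wild-type.

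The 26 gene lists and the members were chosen with earlier results of these data known. Genes named by rule were 18 known genes of the pathway, the 12 largest rises and falls without overlap between groups whose log2 CPM averaged 3 or more, up to 3 rises and 3 falls of each list, and the 4 lowest p in each other comparison, 140 in all. Other genes named in the text illustrate a list and were chosen with their values known. Exact 95% counting intervals and the floor of 3 counts cover counting error only. Gene coordinates and symbols are those of GENCODE M21 (GRCm38), which holds 51596 of the 51789 IDs, and promoter sequences from RefSeq. Python 3.11.15, pandas 2.3.3, scipy 1.17.1 and matplotlib 3.10.9 were used.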

Additional observations from a re-analysis of the deposited data

Results flagged for a closer look

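The response to IL-4 and IL-13 differed between WT and KO for 3197 genes, and between AP-3-84 and vehicle for 16, by edgeR's test of the difference itself. Values below are log2 differences of the responses, WT minus KO, for some of the named genes that passed this test. Others that passed include Ccnd1 (-3.03), Atp6v0d2 (2.25), Batf3 (2.06), Usp18 (-1.71), Fabp5 (1.27), Cd93 (0.78) and Npc2 (0.71). Each of these lost its call with at least 1 library left out. The response was higher in WT for Lrrc32 (7.69), Hbegf (5.53), Ltc4s (5.01), H2-Eb1 (3.71), Socs2 (3.55), Clec7a (3.53), Itgax (3.25), H2-Aa (3.03), Egr2 (2.59), F13a1 (2.25), Tbxas1 (2.18), Fcgr2b (1.79), Gpr132 (1.63), Psap (1.48), Ptafr (1.36) and Il4ra (1.27). It was lower in WT for Zfp811 (-7.40), Cd300e (-6.27), Bub1 (-5.41), Knl1 (-5.11), Pim2 (-5.07), Ect2 (-5.00), Cenpe (-4.65), Marco (-4.24), Gpr18 (-4.03), Nfkbiz (-3.75), Dner (-3.16), Irak3 (-2.71), Socs1 (-2.52) and Tmem26 (-1.80). The value of Lrrc32, which had no count in WT M0, depends on the prior count of the fit and is no bound. With single libraries left out edgeR no longer called F13a1 (11 of 12 libraries, adjusted p up to 0.114), Socs1 (8 of 12, up to 0.153), Gpr18 (6 of 12, up to 0.103), H2-Aa (6 of 12, up to 0.0798) and Il4ra (M2 replicate 1 of WT, 0.059). In the edgeR fit of only the groups compared H2-Aa (adjusted p = 0.14), H2-Eb1 (0.092) and Itgax (0.112) were not called, nor was F13a1 under scaling by total counts (0.0705). The difference of AP-3-84 minus vehicle was -2.77 for Gpr132, -2.65 for AW112010, -1.65 for Ptafr and -1.48 for Ralgds, and none of these 4 was called with some single libraries left out.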

How the results depend on the processing

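When changes under 2-fold (1 on the log2 scale) were set aside, 1372 genes were called in WT M2 against M0 (753 higher, 619 lower), 1738 against M1, 2485 in KO and 1060 with AP-3-84. Scaling by total counts gave 940 higher and 2120 lower, and a fit of the 6 libraries alone 996 higher and 949 lower, or 1373 and 1336 with the replicate block added to it, a setting chosen after seeing the data. Single libraries left out gave 1968 to 2544 genes in all, 1021 to 1315 higher and 865 to 1229 lower, and with AP-3-84 from 1358 (its M0 replicate 1 left out) to 2007 (its M0 replicate 3 left out). With the replicate block 1477 were higher and 1255 lower, and of the calls of the 140 genes named by rule only that of Il18 changed, while Pf4, named outside the rule, also lost its call. The difference of AP-3-84 minus vehicle was called for 117 genes by DESeq2, 103 with 48 libraries, 452 with no filter, 5 in the fit of only the groups compared, 6 with total counts, 2 with the replicate block and 0 to 43 with single libraries left out. In WT M2 against M0 with vehicle, 1819 values of the genes named by rule over all alternatives kept their direction and side of the threshold, 125 lost the call, 4 gained it and 0 reversed. The cause of these changes was not tested. Library totals of 3365693 to 4277426 counts leave genes near the floor of 3 counts imprecise.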

Other observations

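These genes were named after their values were seen. Stefin A genes, a cluster of cysteine protease inhibitors, were high mainly in M2 replicate 1. Stfa1 had 131, 5.13 and 3.48 CPM in M2 and 1.12, 0 and 0 CPM in M0. It was called higher at 6.78 on the log2 scale (edgeR adjusted p = 0.00421), and not without that library (3.34, edgeR adjusted p = 0.133). Gm5483 had 107, 8.14 and 0.317 CPM in M2, and 1.35, 0 and 0 CPM in M0. Ear2, an eosinophil-associated ribonuclease like Rnase2a, was high in the other M2 libraries instead, with 10.3, 201 and 154 CPM in M2 and 0.449, 0.239 and 0.511 CPM in M0 (8.14, edgeR adjusted p = 1.58e-04). Il31ra, a cytokine receptor chain, had 2.50, 4.83 and 6.65 CPM in M2 and 0, 0.239 and 0 CPM in M0, where it rested on 1 count.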
